A study of Mus musculus with 12 samples.

Results

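Respiratory complex I, the NADH:ubiquinone oxidoreductase of mitochondria, was examined through every gene of the deposited count table whose symbol starts with Nduf. There were 45 such genes among the 24421 listed. They comprised 7 core subunits, 29 accessory subunits, 7 assembly factors (Ndufaf genes), and Ndufa4 with its paralog Ndufa4l2, which were kept apart because Ndufa4 is now placed in complex IV. The subunits of the complex that mitochondrial DNA encodes were not analysed here.

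RNA of the tibialis anterior, a fast-fibre muscle at the front of the lower hindlimb, was sequenced in male mice aged 4 months. There were 6 wild-type C57Bl/6 mice (WT) and 6 mdx/mTR mice. In mdx mice Dmd is mutated and dystrophin, which links the cytoskeleton of the fibre to the membrane around it, is lost, while mTR names the mouse telomerase RNA gene (Terc). The labels give no telomerase generation, no litter and no mouse that carries 1 of these alleles alone, so the alleles cannot be told apart in this comparison, nor can effects of the strains' backgrounds.

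Complex I is L-shaped. Its matrix arm holds the N module, where NADH is oxidised on a flavin, and the Q module, where a chain of iron-sulfur clusters hands the electrons to ubiquinone, while the membrane arm pumps protons. The core subunits carry the cofactors and the quinone site, the accessory subunits surround and stabilise them, and the assembly factors help to build modules and are not part of the finished enzyme. In skeletal muscle the complex is the main entry of NADH electrons into the respiratory chain, and its nuclear genes are widely used as markers of mitochondrial content.

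The 6 WT libraries held between 36903560 and 40981012 counts, and the 6 mdx/mTR libraries between 35136327 and 60330410. Levels are given in CPM (a count divided by the library size after TMM factors (trimmed mean of M-values), which centre on genes that change least), and tests are edgeR's quasi-likelihood test with p-values adjusted over all 13937 genes tested, of which 48.3% passed in either direction. Dmd checked the labels: its level was 237 ± 6.90 CPM in WT against 46.8 ± 7.20 CPM (SD, 6 mice per group) in mdx/mTR, without overlap (log2 fold change -2.34 ± 0.09, SE; edgeR adjusted p 8.3e-10). Terc had 2 counts in all, in 1 WT library, too few to check its allele. Markers of fast fibres had the highest summed level of the cell type marker lists in every library, at 183000 to 215000 CPM in WT and 145400 to 201500 in mdx/mTR.

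Sequences at the starts of the Nduf genes were read first, since these genes are textbook targets of NRF1, a factor that acts on nuclear genes of mitochondrial proteins, and since YY1 is found at many such starts. RefSeq windows of the GRCm38.p6 build, from 250 bases before to 50 after the annotated start, were matched for 39 of the 45 genes. Both strands were searched for GCGCNTGCG (NRF1, whose letters can match both strands at once), AAGATGGCG (YY1), CCGGAAG (ETS factors) and AAGGTCA (estrogen-related receptors). The NRF1 letters were in 11 of the 39 windows (28.2%), against 7.12% of the windows of 27025 genes and 14.4% of those of 10550 tested genes. The YY1 letters were in 5 of the 39 (12.8%), against 1.64% and 3.35%. The ETS letters were in 12.8% of the Nduf windows (9.93% and 18.5% in the same sets), and the estrogen-related receptor letters in 7.69% (5.38% and 4.01%). A match is a description of letters in the window, not a bound site. The stretches below hold the NRF1 letters in capitals, so that they can be read beside the levels given further on. First come the 5 genes with these letters that were lower in mdx/mTR with TMM scaling (23.4% of all tested genes were). Then come 2 that did not pass the test.

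Ndufaf4: ccagatgtctGCGCATGCGcctgtgcgga
Ndufa12: ctccagctctGCGCCTGCGtagaacgacc
Ndufa8: ctagagcagtGCGCTTGCGcgtcgctgga
Ndufaf5: agtcccgttgGCGCATGCGcctaatagaa
Ndufs6: cgactgctgtGCGCCTGCGccggcacttg
Ndufa11: cctgcactgcGCGCATGCGcgcacgcctt
Ndufa6: ccgtggcaccGCGCGTGCGcacgctgaag

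These lie at chr4:24897960-24897988 (plus strand) for Ndufaf4, chr10:94198905-94198933 (plus) for Ndufa12, chr2:36049350-36049378 (minus) for Ndufa8, chr2:140170652-140170680 (plus) for Ndufaf5, chr13:73328480-73328508 (minus) for Ndufs6, chr17:56717692-56717720 (plus) for Ndufa11 and chr15:82354250-82354278 (minus) for Ndufa6. The YY1 letters, in capitals here, sat between 22 and 35 bases after the annotated start in the 5 genes that held them. The first 4 of these genes were lower in mdx/mTR with TMM scaling (23.4% of all tested genes were).

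Ndufs4: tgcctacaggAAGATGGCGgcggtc
Ndufa9: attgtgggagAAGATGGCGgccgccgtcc
Ndufs6: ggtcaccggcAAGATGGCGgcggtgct
Ndufs7: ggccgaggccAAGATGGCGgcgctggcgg
Ndufc1: cctgcggaacAAGATGGCGccgtccgtag

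Their positions are chr13:114388045-114388069 (minus strand) for Ndufs4, chr6:126849097-126849125 (minus) for Ndufa9, chr13:73328433-73328459 (minus) for Ndufs6, chr10:80249463-80249491 (plus) for Ndufs7 and chr3:51408915-51408943 (minus) for Ndufc1.

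Of the 45 Nduf genes, 44 had counts and passed the filter on low counts. In mdx/mTR muscle 19 of the 44 were lower (43.2%, where 23.4% of all tested genes were lower), 1 was higher (2.27%, where 25.0% of all tested genes were higher), and 24 did not pass the test. The log2 fold change was below 0 in 40 of the 44, its median over the 44 was -0.15, and the median over all tested genes was 0.01, all with TMM scaling. In 11 of the 44 every mdx/mTR mouse lay below every WT mouse (25%, against 12.6% of all tested genes), and in 0 did every mdx/mTR mouse lie above, which 12.6% of all tested genes did. The falls were small. The largest left 66.5% of the WT mean (Ndufaf4), and the median gene kept 89.9%. Since these are bulk samples, fewer muscle fibres or mitochondria-rich cells in the sample and less RNA per cell cannot be told apart.

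How far below WT these genes stand depends on the scaling. With library totals alone the median of all tested genes moved from 0.0137 to 0.169 on the log2 scale, and the Nduf median moved with it from -0.154 to -0.00244. The distance between both medians was -0.168 with TMM and -0.172 with library totals. With library totals 8 Nduf genes were lower (11.2% of all tested genes were) and 6 were higher (40.2% of all tested genes were). Among the 8 were Ndufs1, Ndufs4, Ndufa12, Ndufb5, Ndufaf4 and Ndufaf6, and the same 8 kept their call and direction under each of the 22 alternatives run. The 11 whose calls as lower ended with library totals were Ndufv1, Ndufv2, Ndufs7, Ndufs6, Ndufa9, Ndufab1, Ndufa10, Ndufb9, Ndufa3, Ndufaf5 and Ndufa4. At a stricter adjusted p of 0.01 with TMM scaling, 9 Nduf genes were lower in edgeR (16.1% of all tested genes were) and 0 were higher (17.0% of all tested genes were).

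**Figure D1:**
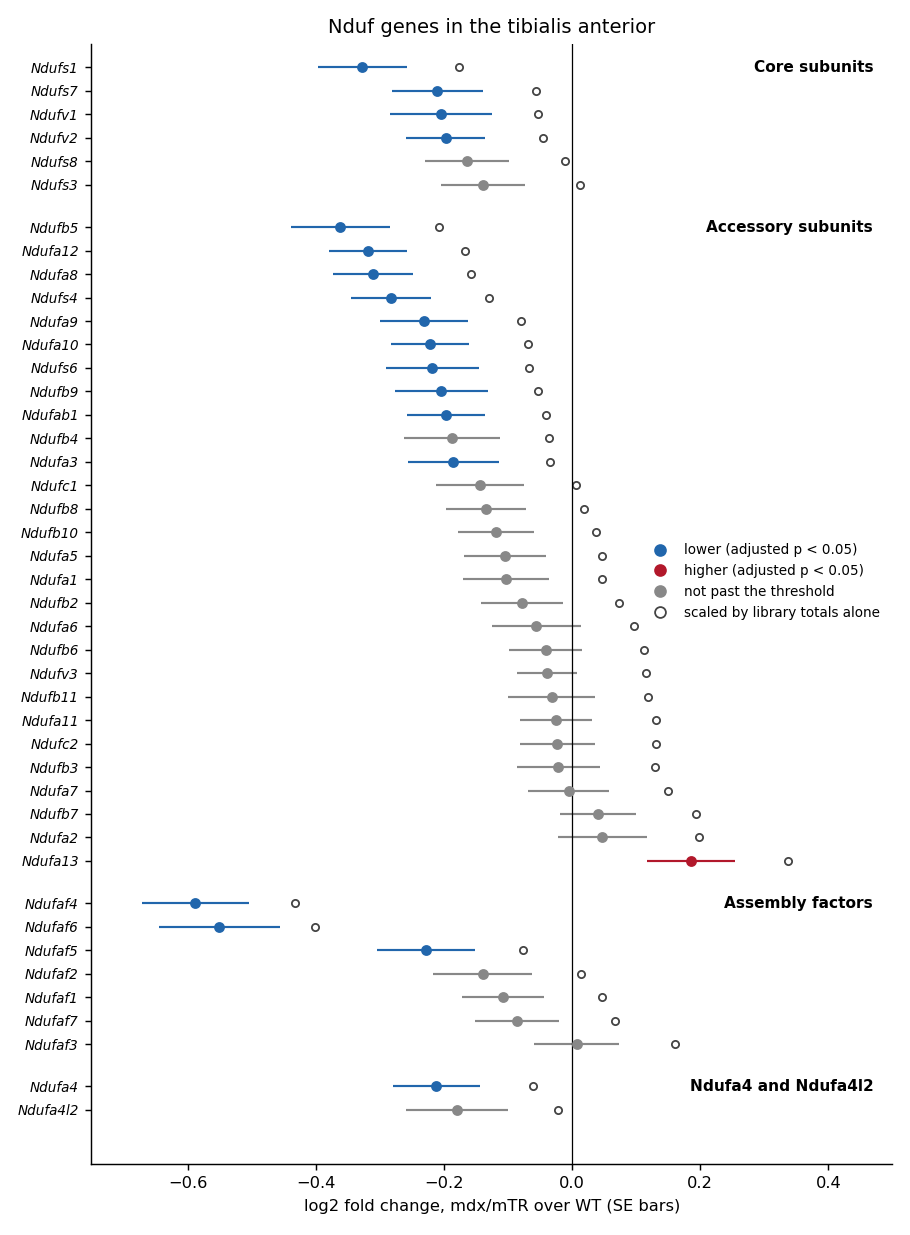
Log2 fold change (mdx/mTR against WT) for 43 tested Nduf genes, with SE bars, from 6 mice per group. Filled points use TMM scaling (blue lower, red higher, grey not past an adjusted p of 0.05) and open circles use library totals alone, under which 18 genes change sign.

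Most core subunits of the matrix arm were lower with TMM scaling. Of 7, 5 were lower (71.4%, against 23.4% of all tested genes) and 0 were higher (25.0% of all tested genes were). All 7 log2 fold changes were below 0 (median -0.21). With library totals Ndufs3 turned to 0.01, and 2 of the 7 were lower (28.6%, against 11.2% of all tested genes). Of the 3 core subunits of the N module, Ndufs1 is the largest subunit of the enzyme and carries several of its iron-sulfur clusters. Ndufs1 (chr1:63143596-63176833, minus strand, GRCm38) stood at 577, 588 and 645 CPM in the lowest, median and highest WT mouse and at 385, 481 and 526 CPM in mdx/mTR. All 6 mdx/mTR mice lay below all WT mice, and the mean was 79.7% of WT (log2 fold change -0.33 ± 0.07, edgeR adjusted p 0.0016). Ndufv1 binds the flavin and NADH itself. It stood at 431, 471 and 548 CPM in WT and at 342, 409 and 484 in mdx/mTR, and the groups overlapped (log2 fold change -0.21 ± 0.08, edgeR adjusted p 0.0461). That call was lost in 15 of the 22 alternatives. Ndufv2 carries an iron-sulfur cluster beside the flavin. It stood at 315, 335 and 355 CPM in WT and at 240, 301 and 307 in mdx/mTR. The groups did not overlap, and mdx/mTR replicate 5 stood far below the other 5 (log2 fold change -0.20 ± 0.06, edgeR adjusted p 0.0174).

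In the Q module, Ndufs7, which holds the last cluster of the chain beside the ubiquinone site, stood at 258, 297 and 305 CPM in WT and at 212, 256 and 297 in mdx/mTR. Its groups overlapped, and WT replicate 4 stood apart below the other WT mice (log2 fold change -0.21 ± 0.07, edgeR adjusted p 0.026). That call was lost in 5 of the 22 alternatives, among them library totals (-0.06, edgeR adjusted p 0.485) and upper quartile factors (edgeR adjusted p 0.064). Ndufs8 and Ndufs3 missed the threshold. Ndufs8, a ferredoxin-like subunit, stood at 121, 131 and 151 CPM in WT and at 103, 117 and 134 in mdx/mTR (log2 fold change -0.16 ± 0.07, edgeR adjusted p 0.0502). Ndufs3, a scaffold of the Q module, stood at 123, 132 and 144 CPM in WT and at 101, 122 and 136 in mdx/mTR (-0.14 ± 0.07, edgeR adjusted p 0.0935). Both overlapped widely between groups, and 35.8% of the 50-base stretches of the Ndufs3 transcript also occur in pseudogenes, so its counts may be split. The authors' deposited table puts Ndufs8 past the threshold, at an adjusted p of 0.0357.

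**Figure D2:**
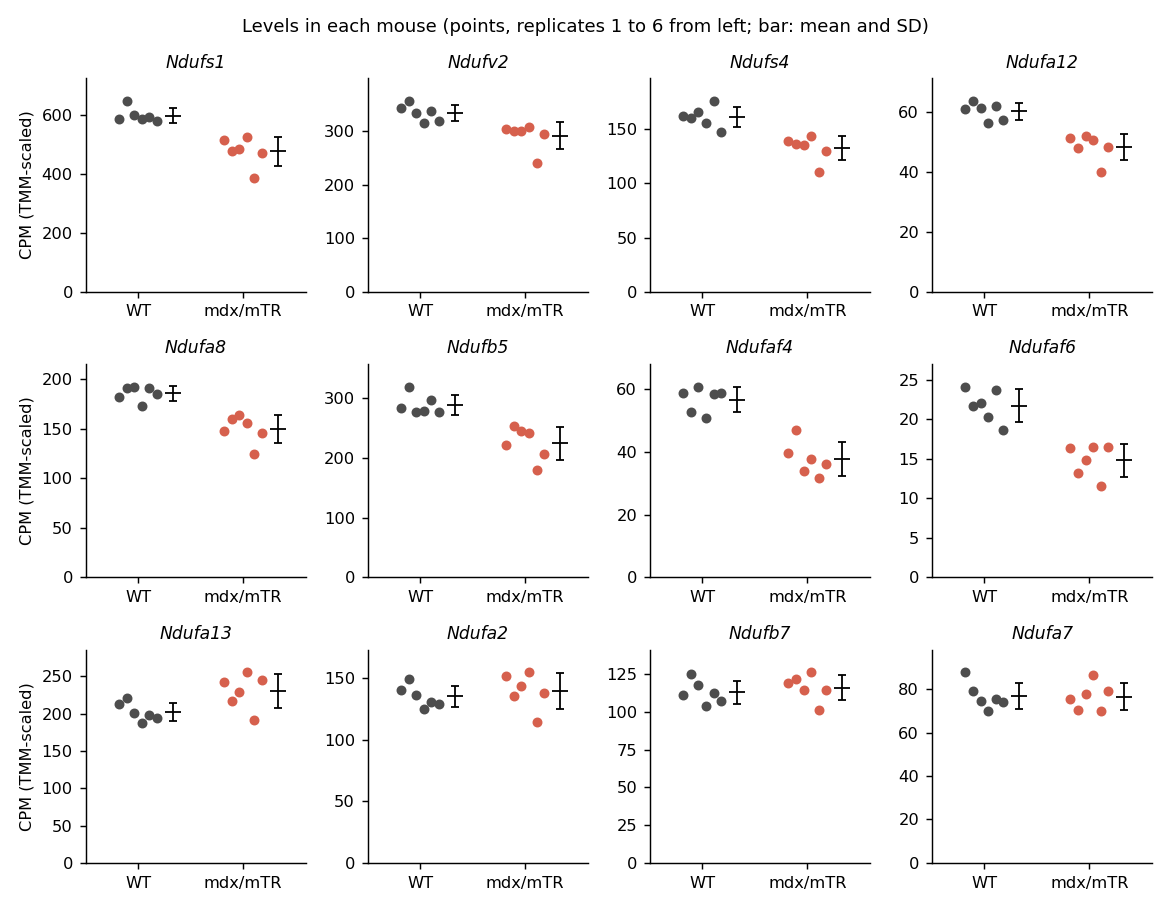
Level (TMM-scaled CPM, linear axes from 0) of 12 Nduf genes in each mouse, with bars for the mean and SD of 6 mice. The first 8 genes, Ndufs1 to Ndufaf6, show no overlap between groups, whereas Ndufa13, Ndufa2, Ndufb7 and Ndufa7 overlap.

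Accessory subunits were less uniform. Of 29, 28 were tested. With TMM scaling 10 were lower (35.7%, against 23.4% of all tested genes), 1 was higher (3.57%, against 25.0%) and 17 did not pass. The median was -0.11 with TMM scaling and 0.04 with library totals. In the N module, which holds the NADH site, 3 of 7 were lower (42.9%, against the same 23.4%). Ndufa12, a structural relative of the assembly factor Ndufaf2, stood at 56.2, 61.1 and 63.4 CPM in WT and at 39.8, 49.4 and 51.8 in mdx/mTR. The groups did not overlap (80.2% of WT, log2 fold change -0.32 ± 0.06, edgeR adjusted p 8.2e-04), although 26.2% of its 50-base stretches are shared with 1 pseudogene. Ndufs4, whose loss in mice gives a model of Leigh syndrome, stood at 148, 161 and 176 CPM in WT and at 111, 136 and 143 in mdx/mTR. Again the groups did not overlap (-0.28 ± 0.06, edgeR adjusted p 0.0022). Ndufs6, a zinc-binding subunit, stood at 73.9, 77.2 and 85.7 CPM in WT and at 54.6, 69.0 and 76.2 in mdx/mTR, with overlap (-0.22 ± 0.07, edgeR adjusted p 0.0235). The other 4, Ndufv3, Ndufa2, Ndufa6 and Ndufa7, had log2 fold changes between -0.06 and 0.05 with TMM scaling, and none passed. With library totals they ran from 0.10 to 0.20. Ndufv3, Ndufa2 and Ndufa7 then passed as higher, as 40.2% of all tested genes did with that scaling. Core and accessory members of the N module thus ran from -0.33 to 0.05 with TMM scaling.

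In the Q module and at the junction of both arms, Ndufa9 was lower and Ndufa5 was not past the threshold. Ndufa9, which sits at the junction near the quinone site, stood at 312, 320 and 361 CPM in WT and at 226, 282 and 308 in mdx/mTR. The groups did not overlap (-0.23 ± 0.07, edgeR adjusted p 0.0124). Ndufa5 stood at 114, 123 and 132 CPM in WT and at 95, 118 and 125 in mdx/mTR (edgeR adjusted p 0.194), and the groups overlapped. Ndufab1, the mitochondrial acyl carrier protein, is bound in both arms and also serves fatty acid synthesis in mitochondria. It stood at 9.82, 10.8 and 11.9 CPM in WT and at 9.12, 9.49 and 9.95 in mdx/mTR, and the groups overlapped at their edges (-0.20 ± 0.06, edgeR adjusted p 0.0164).

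Of the 18 tested accessory subunits of the membrane arm, 5 were lower (27.8%, against 23.4% of all genes). Of the rest, 1 was higher (5.56% of the 18, against 25.0% of all genes) and 12 did not pass. Ndufb5 (chr3:32736990-32751566, plus strand), a subunit of the outer part of the arm, had the largest change of any subunit with TMM scaling. It stood at 276, 281 and 319 CPM in WT and at 181, 232 and 254 in mdx/mTR, without overlap (77.8% of WT, -0.36 ± 0.08, edgeR adjusted p 0.0018). Ndufa8, on the side of the intermembrane space, stood at 173, 188 and 192 CPM in WT and at 124, 152 and 164 in mdx/mTR. It too showed no overlap (-0.31 ± 0.06, edgeR adjusted p 0.0011). Ndufa10, a relative of nucleoside kinases, stood at 286, 311 and 344 CPM in WT and at 229, 278 and 283 in mdx/mTR, where the highest mdx/mTR mouse lay just below the lowest WT mouse (-0.22 ± 0.06, edgeR adjusted p 0.0085). The other members of the arm that were lower were Ndufb9 (-0.20, edgeR adjusted p 0.0325) and Ndufa3 (-0.19, edgeR adjusted p 0.0438), and they lost their calls in 7 and 15 of the 22 alternatives. With library totals Ndufb9 stood at -0.05 (edgeR adjusted p 0.505) and Ndufa3 at -0.03 (edgeR adjusted p 0.636).

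Ndufa13, a membrane-arm subunit also known as GRIM19, was the only Nduf gene that was higher with TMM scaling, and it was singled out after its values were seen. It stood at 187, 200 and 221 CPM in WT and at 192, 236 and 255 in mdx/mTR. The groups overlapped, and mdx/mTR replicate 5 was the lowest of its group (114% of WT, 0.19 ± 0.07, edgeR adjusted p 0.0367). The call was lost in 12 of the 22 alternatives, among them the fit corrected for GC content and transcript length. With library totals Ndufa13 stood at 0.34 (edgeR adjusted p 2.45e-04) and with upper quartile factors at 0.23 (edgeR adjusted p 0.0131). Of all tested genes 40.2% and 28.4% were higher with those scalings. The 12 membrane-arm genes that did not pass ran from -0.19 (Ndufb4) to 0.04 (Ndufb7) with TMM scaling. Ndufb4 is uncertain, since 37.0% of its 50-base stretches occur in pseudogenes.

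Ndufs5, an accessory subunit of the membrane arm, had 0 counts in each of the 12 libraries, which allows at most 3 counts, or 0.0460 to 0.0837 CPM, per library. The listed gene BC002163 shares 31.1% of the 50-base stretches of Ndufs5 and averaged 1.46 ± 0.36 CPM in WT and 1.73 ± 0.34 in mdx/mTR, so how the counting divided reads between both entries was not tested. A gene listed at 0 here is therefore not shown to be silent.

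The assembly factors held the largest changes of the whole family. Of 7, 3 were lower (23.4% of all tested genes were), 0 were higher (25.0% of all tested genes were) and 4 did not pass, with a median of -0.14. With library totals 2 were lower (11.2% of all tested genes were) and 1 was higher (40.2% of all tested genes were). The median was then 0.01. Ndufaf4 (chr4:24898083-24905001, plus strand, GRCm38) acts with Ndufaf3 early in building the Q module. It stood at 50.8, 58.7 and 60.8 CPM in WT and at 31.8, 36.9 and 47.0 in mdx/mTR. Every mdx/mTR mouse lay below every WT mouse, and the mean was 66.5% of WT (log2 fold change -0.59 ± 0.08, edgeR adjusted p 8.7e-05). Its partner Ndufaf3 stood at 12.2, 12.5 and 14.2 CPM in WT and at 11.4, 12.4 and 14.2 in mdx/mTR. That is full overlap (0.01 ± 0.07, edgeR adjusted p 0.936), whereas with library totals Ndufaf3 passed as higher (0.16, edgeR adjusted p 0.0466).

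Ndufaf6 (chr4:11051045-11076205, minus strand, GRCm38), an early factor of the Q module and the adjoining membrane part, stood at 18.7, 21.8 and 24.1 CPM in WT and at 11.5, 15.6 and 16.5 in mdx/mTR. The groups did not overlap, and the mean was 68.3% of WT (-0.55 ± 0.09, edgeR adjusted p 3.8e-04). Ndufaf5, which hydroxylates an arginine of Ndufs7, stood at 29.9, 34.8 and 37.8 CPM in WT and at 23.8, 30.3 and 32.3 in mdx/mTR, with overlap (-0.23 ± 0.08, edgeR adjusted p 0.0241). Its call was lost in 5 of the 22 alternatives, among them library totals (-0.08, edgeR adjusted p 0.285) and upper quartile factors (edgeR adjusted p 0.0518). The partner of Ndufaf5, Ndufaf8, listed under the older name 1810043H04Rik and so outside the Nduf rule, averaged 11.0 ± 0.995 CPM in WT and 10.3 ± 1.03 in mdx/mTR (-0.10 ± 0.08, edgeR adjusted p 0.327).

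The other 3 assembly factors did not pass. Ndufaf1, of the complex that builds the inner membrane arm, stood at 43.4, 44.3 and 51.1 CPM in WT and at 37.2, 42.2 and 48.3 in mdx/mTR (edgeR adjusted p 0.182). Ndufaf2, which holds the place of Ndufa12 until late assembly, stood at 6.29, 6.62 and 7.25 CPM in WT and at 5.09, 6.15 and 6.75 in mdx/mTR (edgeR adjusted p 0.147). Ndufaf7, an arginine methyltransferase that acts early in assembly, stood at 19.1, 21.0 and 25.0 CPM in WT and at 18.7, 20.2 and 21.7 in mdx/mTR (edgeR adjusted p 0.301). In all 3 the groups overlapped.

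Ndufa4 stood at 381, 416 and 444 CPM in WT and at 295, 368 and 400 in mdx/mTR (-0.21 ± 0.07, edgeR adjusted p 0.0195). Its paralog Ndufa4l2, known for induction by hypoxia, stood at 8.17, 9.39 and 9.71 CPM in WT and at 6.92, 8.08 and 8.99 in mdx/mTR (-0.18 ± 0.08, edgeR adjusted p 0.0776). Both overlapped between groups, and the abundant gene alone passed the test.

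**Figure D3:**
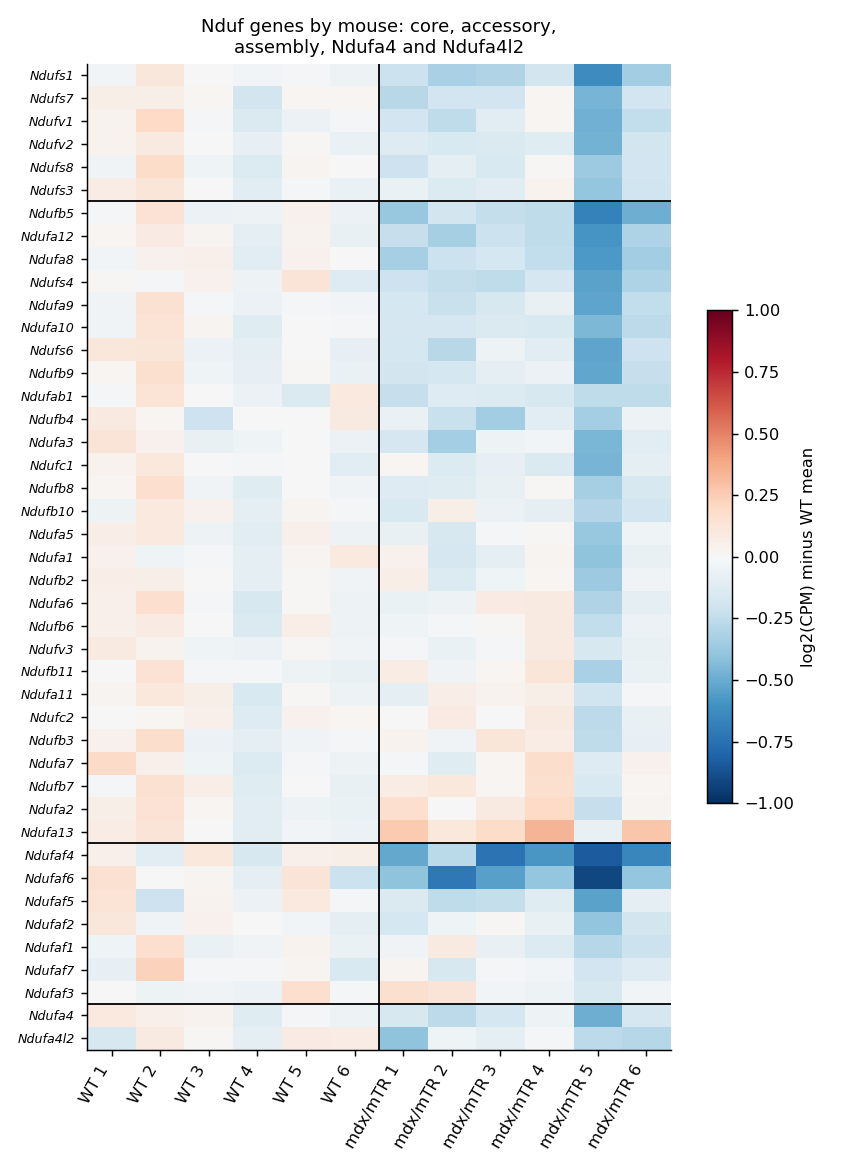
Log2 CPM of 43 Nduf genes in each mouse minus the mean of the 6 WT mice for that gene (TMM scaling). Columns are mice, blue is below and red above the WT mean, and mdx/mTR replicate 5 is the darkest column, the lowest of its group for 42 of the 44 tested genes.

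With TMM scaling the members varied together across mice within a group. Among the mdx/mTR mice, replicate 5 was the lowest for 42 of the 44 genes and replicate 4 the highest for 24. Among the WT mice, replicate 2 was the highest for 28 and replicate 4 the lowest for 30. The median Nduf gene of mdx/mTR replicate 5 stood at -0.37 relative to the WT mean on the log2 scale, and that of replicate 4 at -0.04. These ranks and levels depend on the scaling, and the TMM factor was 1.16 in replicate 5 against 0.988 to 1.09 in the other mdx/mTR mice. Such ranks were not counted for all tested genes. Summed levels of respiratory complexes II to V were also lowest in replicate 5 among the mdx/mTR mice (1921, 2791, 2442 and 8356 CPM). As a share of all counts, Nduf genes took 0.6636% in replicate 5 and 0.686% to 0.7872% in the others. Replicate 5 also had the highest summed level of regenerating-fibre markers (456.4 CPM, against 69.13 to 205.1 in the other mdx/mTR mice and 13.11 to 13.64 in WT), of macrophage markers (620 CPM) and of fibro-adipogenic progenitor markers (4303 CPM), and the lowest of fast-fibre markers (145400 CPM). Replicate 2 of mdx/mTR came next on each of these lists (205.1, 415.8, 4069 and 150900 CPM). Its median Nduf gene stood at -0.14 relative to the WT mean, and its Nduf genes took 0.7528% of all counts. A link between these markers and the Nduf levels was not tested. Without replicate 5, 17 Nduf genes were lower (22.2% of all tested genes), 1 was higher (22.6% of all tested genes) and 35 of 44 lay below 0, with a median of -0.12.

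Those marker lists also moved between the groups, here counted with TMM scaling, under which 23.4% of all tested genes were lower and 25.0% higher. All 4 regenerating-fibre markers and 6 of 7 macrophage markers were higher in mdx/mTR, where the summed macrophage level ran from 229 to 620 CPM against 81.71 to 142.1 in WT. Of 5 progenitor markers, 4 were higher (2131 to 4303 against 851.5 to 1552 CPM summed), and 1 of 8 fast-fibre markers was lower and 1 higher. Slow-fibre markers gave 4 higher and 1 lower of 6, with summed levels of 53.01 to 179.6 CPM against 67.3 to 186.3. Endothelial markers gave 2 lower of 4, pericyte and smooth muscle markers 4 lower and 1 higher of 6, Schwann cell markers 3 lower of 3, adipocyte markers 0 of 2 and T cell markers 1 higher of 1 tested, and 0 genes of these lists were at 0 in every library. With library totals 11.2% of all tested genes were lower and 40.2% higher. There 0 of 4 endothelial markers were lower, and pericyte and smooth muscle markers had 2 lower and 1 higher of 6. Fast-fibre markers had 1 lower and 2 higher of 8, while the other lists had the same counts as with TMM. Their part in the levels of the Nduf genes was not tested.

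Summed levels compare the classes within each library. In WT 6 of the 7 core subunits, those named here, summed to 1967 ± 104 TMM-scaled CPM, against 1674 ± 164 in mdx/mTR, and the accessory subunits to 4288 ± 209 and 3909 ± 332 (SD, 6 mice per group). The differences between groups in these sums depend on the scaling, while the ratio of both sums does not. It was 0.459 ± 0.004 in WT (0.452 to 0.463) and 0.428 ± 0.009 in mdx/mTR (0.421 to 0.445), and no mouse of one group reached the range of the other. Ndufs1 and Ndufv1, with means of 597 and 478 CPM in WT, weigh most in that core sum. The 7 assembly factors summed to 199 ± 7.51 and 163 ± 13.3 CPM. The Nduf genes as a whole took 0.739 ± 0.040% of all counts in WT and 0.722 ± 0.047% in mdx/mTR, which overlapped.

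**Figure D4:**
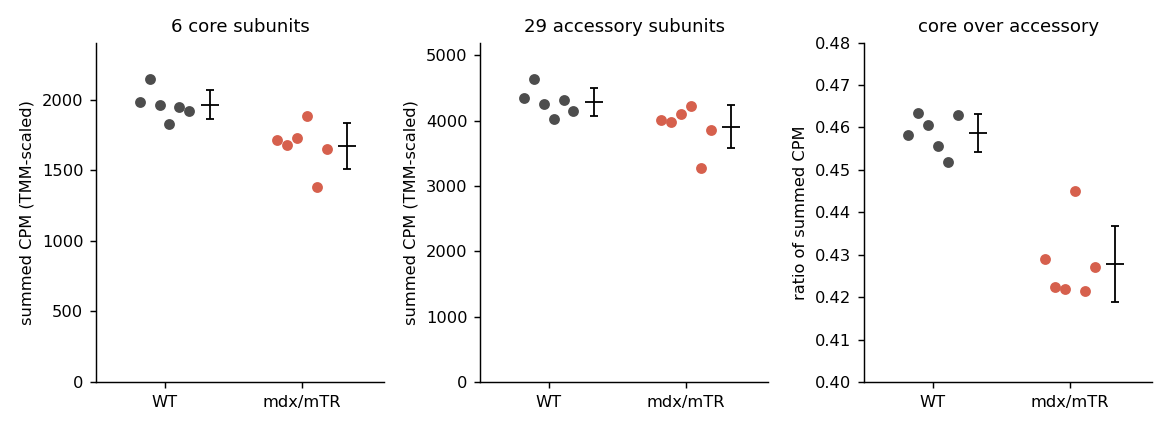
Summed level of 6 core subunits and of the accessory subunits (TMM-scaled CPM, axes from 0) and the ratio of the sums (axis from 0.40 to 0.48) in each mouse, with mean and SD of 6 mice. The ratio is 0.452 to 0.463 in WT and 0.421 to 0.445 in mdx/mTR.

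Each gene was also set against the median Nduf gene of its own library, which likewise removes the scaling. Of the 44, 14 were then lower in every mdx/mTR mouse than in every WT mouse (6.03% of all tested genes on that scale), 2 were higher (13.6% of all tested genes) and 28 overlapped. The reference is the median of these same 44 genes, which takes out variation that they share and that other genes may not. The shares of all tested genes are therefore not an even background here, and the counts measure no excess over them. The 14 were 3 core subunits, 8 accessory subunits, 2 assembly factors and Ndufa4. The strongest shifts on this log2 scale were those of Ndufaf4 (-0.52), Ndufaf6 (-0.48), Ndufb5 (-0.29) and Ndufs1 (-0.26). The 2 that were higher were Ndufa13 (0.26) and Ndufa2 (0.12). The spread of the family between these ends shows unequal change, and it does not show which members stayed level.

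The genes with promoter letters were then read against the calls with TMM scaling. Under it 23.4% of all tested genes were lower and 25.0% higher. Of the 10 tested genes with the NRF1 letters, 5 were lower (Ndufaf4, Ndufa12, Ndufa8, Ndufaf5 and Ndufs6) and 5 did not pass (Ndufa11, Ndufa5, Ndufa6, Ndufb4 and Ndufb10), with log2 fold changes from -0.59 to -0.02. Of the 28 without these letters 10 were lower and 1 was higher. Of the 5 genes with the YY1 letters 4 were lower, and the 5 ran from -0.28 to -0.14, while 11 of 33 without them were lower and 1 was higher. For the ETS letters the count was 0 of 5, and for the estrogen-related receptor letters 0 of 2. The calls of Ndufaf5, Ndufs6, Ndufa9 and Ndufs7 as lower ended with library totals alone, under which 11.2% of all tested genes were lower. Calls among all tested genes with the same letters were not counted. These counts are small and are given as a description with no test. The other window with the NRF1 letters belongs to Ndufs5, which had no counts.

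Length and GC content of the transcripts were described across the 44 genes with no test, since genes in 1 set of libraries are not independent. Both were taken from the longest coding transcript of each gene, or from the longest transcript where none was coding. Spearman's rho of the log2 fold change was -0.36 with this length and 0.31 with GC content (-0.06 and 0.07 across 13837 tested genes). With a correction for both, 27 Nduf genes were lower (23.6% of all tested genes), among them all 7 core subunits, and 0 were higher (25.5% of all tested genes). Per kilobase of exonic length, which counts all exons of a gene, WT levels of the tested genes ran from 422 CPM for Ndufb9 to 1.58 for Ndufab1. Both ends are uncertain, since 23.36% of the 50-base stretches of Ndufb9 and 12.27% of those of Ndufab1 are shared with other genes. The authors' deposited table called 21 Nduf genes lower and 1 higher, among them the 20 called here, and its 2 further genes were Ndufs8 and Ndufb4. The share of all genes that passed in that table was not counted here. DESeq2 run here on the deposited counts also called 21 Nduf genes lower and 1 higher. It called 3419 of all 13937 tested genes lower and 3532 higher.

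Genes that serve complex I or stand beside it in the respiratory chain gave context, each list described by its counts with TMM scaling, under which 23.4% of all tested genes were lower and 25.0% higher, and then with library totals alone (11.2% and 40.2%). Of 9 tested further assembly factors 5 were lower and 0 higher (median -0.16), with the smallest p for Ecsit, a partner of Ndufaf1 (-0.33, edgeR adjusted p 5.2e-04), and Tmem126a (-0.21, edgeR adjusted p 0.0061). With library totals 1 of the 9 was lower and 1 higher (median -0.01). Of 14 genes of iron-sulfur cluster supply 5 were lower and 0 higher (median -0.11), led by the chaperone Hspa9 (-0.41, edgeR adjusted p 5.9e-05) and Isca1 (-0.36, edgeR adjusted p 6.3e-04). With library totals 2 of the 14 were lower and 3 higher, and the median turned to 0.05. Of the 3 genes of mitochondrial proteases 2 were lower, Lonp1 (-0.27, edgeR adjusted p 0.0012) and Clpp (-0.25, edgeR adjusted p 0.0024), while with library totals 1 of the 3 was lower and 1 higher.

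Among the other complexes, 2 of 4 genes were lower for complex II (median -0.17), with Sdhb at -0.25 (edgeR adjusted p 0.0211) and Sdhc at -0.16 (edgeR adjusted p 0.0381). Complex III had 2 lower and 1 higher of 9 (median -0.15), with Uqcrfs1 at -0.19 (edgeR adjusted p 0.028) and Uqcrh at 0.16 (edgeR adjusted p 0.0298). Complex IV had 7 lower and 2 higher of 13 (median -0.19), with Cox6a2 at -0.44 (edgeR adjusted p 2.9e-04) and Cox4i1 at -0.25 (edgeR adjusted p 0.0028). Complex V had 3 lower and 0 higher of 15 (median -0.05), with Atp5c1 at -0.23 (edgeR adjusted p 0.0099) and Atp5a1 at -0.25 (edgeR adjusted p 0.0151). The Nduf median of -0.15 lies within the range of these 4 medians. With library totals alone the medians of complexes II, III and IV ran from -0.04 to 0.00, complex V stood at 0.10, and 1 gene of all 4 complexes was lower (in complex IV), while 2 of complex III, 4 of complex IV and 3 of complex V were higher.

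**Figure D5:**
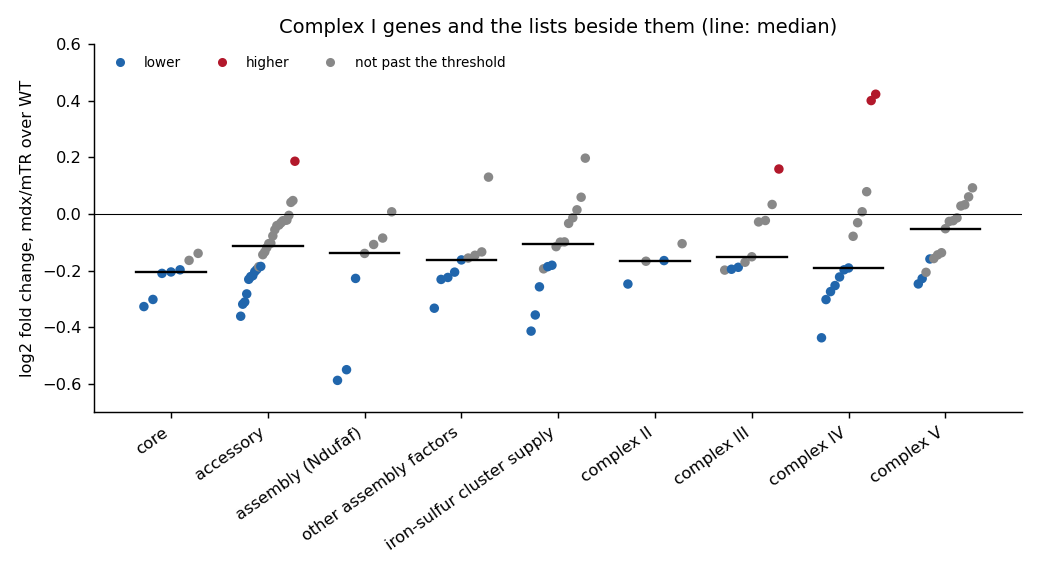
Log2 fold change (mdx/mTR against WT, TMM scaling) for each tested gene of complex I by class and of 6 lists beside it, with a line at each median. Medians run from -0.21 for the core subunits to -0.05 for complex V with TMM scaling, and lie closer to or above 0 with library totals alone.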

How the data were processed

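RNA of 12 muscles was sequenced, and per the submitters' processing notes FastQC, STAR and DESeq2 were used with the mm10 build, with no versions. The counter, the annotation and strand handling are not given in the sources used here. The authors deposited whole-number counts per gene symbol, 1 column per mouse. A second table by the authors gives their test: per the file headers it has a mean signal after normalization, log2 fold changes and their errors, a score for each test, and p-values.

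The deposited counts went unchanged into edgeR 4.0.16 (R 4.3.3): filterByExpr (13937 genes with 99.97% of counts), TMM factors, group as the only term, Benjamini-Hochberg adjustment over all tested genes and a threshold of 0.05. The SE is the log2 fold change divided by the square root of F. Scripts used Python 3.11.15 with pandas 2.3.3. The main edgeR fit was tested on simulated data in which few genes changed, equally up and down. That simulation did not test the choice of scaling. A gene without counts could still have up to 3 (95% limit, counting error only), which is the floor used.

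Groups and replicate numbers came from the labels, which do not say whether the mice were litter mates or the libraries one batch. P-values measure the spread between these mice. In all 30 pairs of replicates the counts differed beyond sampling noise (chi-square over degrees of freedom 8.87 to 115.5).

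The members and gene lists were chosen with earlier results of these data known. A core subunit is not reported here by name and is left out of the sums and of the figures by gene, but counts over a class include it. Values by mouse are given for the other core subunits, every assembly factor, Ndufa4 and Ndufa4l2, and for the 3 smallest p-values of each accessory module. Context genes are the 2 smallest p-values of each list. Alternatives were other scalings, filters, DESeq2 1.42.0, limma-voom (limma 3.58.1), a replicate block, each mouse left out and a stricter threshold. Correcting for transcript length and GC content (GENCODE M21) was added after seeing the data. A stretch of 50 bases counts as shared when another gene of GENCODE M21 has it in a transcript.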

Additional observations from a re-analysis of the deposited data

Results flagged for a closer look

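Within the groups of 6 mice, 100 sets of values were examined for a mouse that stands apart, meaning that its gap to the nearest mouse exceeds Dixon's critical share of the whole range. Chance would flag about 1 in 20 such sets if they were independent (5 of 100), and 12 were found. The sets come from the same 12 libraries and are not independent, so 12 against 5 does not measure an excess over chance.

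In WT, replicate 2 was high for Ndufs1 (645.4 CPM, the others 577.3 to 599.3), Ndufa9 (361 CPM, the others 311.8 to 321.9) and Ndufb11 (216.7 CPM, the others 186.2 to 196.9), and for the share of all counts taken by Nduf genes (0.8142%, the others 0.6938% to 0.7367%). WT replicate 4 was low for Ndufs7 (258.1 CPM, the others 296.5 to 305.4) and Ndufc2 (85.09 CPM, the others 92.96 to 96.18). WT replicate 3 was low for Ndufb4 (8.577 CPM, the others 9.923 to 10.53), and WT replicate 5 was high for Ndufaf3 (14.24 CPM, the others 12.15 to 12.64).

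In mdx/mTR, replicate 5 was low for Ndufv2 (239.6 CPM, the others 293.7 to 306.6), Ndufa12 (39.79 CPM, the others 47.74 to 51.81) and Ndufc1 (83.57 CPM, the others 104.6 to 116.7). Replicate 4 was high for the ratio of summed core to accessory levels (0.445, the others 0.4214 to 0.4289). The replicates most often apart were WT replicate 2, in 4 of the 12 cases, and mdx/mTR replicate 5, in 3.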

How the results depend on the processing

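The scaling of libraries mattered most. With library totals alone 8 Nduf genes were lower (11.2% of all tested genes) and 6 higher (40.2% of all tested genes). Among the 8 were 2 core and 4 accessory subunits. Of all calls 78.2% were then higher, against 51.6% with TMM. With upper quartile factors 12 were lower (3 core, 6 accessory; 19.4% of all tested genes). At an adjusted p of 0.01, 9 were lower (2 core, 5 accessory; 16.1% of all) and 0 higher (17.0% of all). The count of higher genes was also 0 with no filter, with the block and with the GC and length correction. With 1 mouse left out, counts ran from 13 to 23 Nduf genes lower, 0 to 1 higher, 3 to 7 core, 7 to 11 accessory, 2 to 3 assembly and 6125 to 6816 of all genes; the 3 core genes came without WT replicate 1. The causes were not tested.

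Signs turned with library totals for Ndufs3 (0.0129), Ndufv3 (0.115), Ndufa6 (0.0967), Ndufa7 (0.149), Ndufa5 (0.0463), Ndufa1 (0.0463), Ndufa11 (0.131), Ndufb2 (0.0726), Ndufb3 (0.130), Ndufb6 (0.112), Ndufb8 (0.0189), Ndufb10 (0.0366), Ndufb11 (0.119), Ndufc1 (0.00573), Ndufc2 (0.131), Ndufaf1 (0.0461), Ndufaf2 (0.0147) and Ndufaf7 (0.0675). With upper quartile factors they turned for Ndufv3 (0.00094), Ndufa7 (0.0352), Ndufa11 (0.0164), Ndufb3 (0.0186), Ndufb11 (0.00833) and Ndufc2 (0.0175), with a filter of 1 CPM for Ndufa7 (0.00819), and with the GC and length correction for Ndufb7 (-0.0138) and Ndufaf3 (-0.0429). With 1 mouse left out 6 genes near 0 crossed it: Ndufa11 (-0.0545 to 0.00532), Ndufa7 (-0.0437 to 0.0345), Ndufaf3 (-0.0262 to 0.0416), Ndufb11 (-0.0633 to 0.0178), Ndufb3 (-0.0517 to 0.0178) and Ndufc2 (-0.0492 to 0.0170).

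With the replicate number as a block 17 Nduf genes were lower (22.3% of all tested genes), 3 of them core, and 16 of the 20 calls were kept. Ndufv1 (adjusted p 0.0636), Ndufs7 (0.0545), Ndufa3 (0.0599) and Ndufa13 (0.0638) were lost and Ndufb4 (0.0394) was gained, all in edgeR. The labels do not say whether the numbers pair the mice. Correlations of same-numbered mice ran from -0.155 to 0.354, and 2 of 6 were over 0.1, which does not settle it. Genes at under 10 CPM rest on fewer counts than the rest, and changes of a few percent in a gene were within the spread between mice.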
